A study of Mus musculus with 2 samples.

Results

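The histone genes described here were the 73 genes, of 33696 listed for both libraries, whose symbols start with H1f, H2ac, H2bc, H3c or H4c followed by a digit. They comprise 11 linker histone (H1) genes, 18 H2A genes, 19 H2B genes including the pseudogene H2bc26-ps, 12 H3 genes and 13 H4 genes. The rule itself reads only the symbols. On the GRCm38 assembly 54 lie on chromosome 13, 10 on chromosome 3, 4 on chromosome 11, 3 on chromosome 6 and 2 on chromosome 15. Of the 73 genes, 66 had at least 1 unique molecular identifier (UMI, a tag that counts an original RNA molecule) in the cells analysed. The 7 without a UMI were H1f7, H1f8, H1f9, H2ac1, H2ac19, H2bc1 and H2bc23.

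The study profiled splenic CD8 T cells from C57BL/6 mice of wild-type genotype by droplet single-cell RNA sequencing, with 1 library per group. The DHEA library came from mice injected under the skin every day for 21 days with dehydroepiandrosterone, an androgen precursor, at 40 mg/kg in 20 µL of sesame oil, a regimen used as a mouse model of polycystic ovary syndrome. The CTRL library came from mice given the same volume of oil alone on the same days. CD8 T cells were taken from each spleen suspension with magnetic beads after red cell lysis, and the series text calls them pooled, so a library may hold cells of several animals. The sources used here do not give how many animals went into a library, or their sex and age.

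Core histones H2A, H2B, H3 and H4 form the protein spool around which DNA is wound, and linker histone H1 binds where the DNA enters and leaves it. Most of their genes stand in clusters and are replication-dependent, which means that they are transcribed when a dividing cell copies its DNA. Their mRNAs usually end just after a short conserved hairpin, the histone stem-loop, which is bound by the protein Slbp, and they carry no poly(A) tail. Some of these genes can also give longer, polyadenylated mRNAs, and the replacement linker histone gene H1f0 lies outside the clusters and gives a polyadenylated mRNA. The libraries were made with a 3′ kit that primes on poly(A), so UMI counts of these genes report the molecules the primer caught. Each captured molecule gives 1 UMI whatever its length, so levels are not divided by gene length, and levels of different genes are not a scale of total mRNA.

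The stem-loop is shown here for 5 genes that were more than 10-fold higher in cycling than in resting cells of both libraries, and then for the 3 genes with most UMIs in resting cells, because their annotated transcript ends differ. Capitals mark the stem-loop, written 5′ to 3′ as DNA with flanking transcript bases in lower case.
H2ac24: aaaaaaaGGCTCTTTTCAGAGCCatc
H2ac4: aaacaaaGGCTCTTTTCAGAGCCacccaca
H3c3: aaaaaaaGGCTCTTTTAAGAGCCacctaag
H3c2: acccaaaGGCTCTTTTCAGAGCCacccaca
H2ac8: aaacaaaGGCTCTTTTCAGAGCCattcact
H4c4: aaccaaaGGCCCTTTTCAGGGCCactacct
H1f2: tccaaaaGGCTCTTTTCAGAGCCaccactc
H1f4: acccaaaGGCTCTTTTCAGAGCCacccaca
These were read from GENCODE M21 transcripts of the GRCm38 assembly, whereas the deposited counts were made on mm39, so coordinates are given for GRCm38 alone. H2ac24 lies at chr13:21833026-21833507 on the minus strand, H2ac4 at chr13:23751126-23751598 on the plus strand and H3c3 at chr13:23744973-23745602 on the minus strand. H3c2 lies at chr13:23752267-23752886 on the plus strand and H2ac8 at chr13:23570517-23571220 on the minus strand. H4c4 lies at chr13:23581598-23582735 and H1f2 at chr13:23738808-23740367, both on the plus strand, and H1f4 at chr13:23620629-23622558 on the minus strand. A histone stem-loop was found in the annotated transcripts of 46 of the 73 genes (63.0%) and in 22 of 21829 other protein-coding genes (0.101%). The most frequent form, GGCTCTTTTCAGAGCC, was present in 26 genes, among them H2ac24 and H1f2, so the same hairpin was found in genes of both kinds. What differed was the annotated stretch after it. It measured 3 bases in H2ac24, 11 in H2ac4, 74 in H3c3 and 51 in H3c2, against 770 in H4c4, 840 in H1f2 and 1153 in H1f4, with H2ac8 between them at 151 bases.

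Cells were kept with at least 200 detected genes, under 10% mitochondrial UMIs and at least 1 UMI of CD8 and of CD3, which left 10699 DHEA cells and 8717 CTRL cells. A cell with a UMI of Mki67 or Top2a, which encode a proliferation antigen and the topoisomerase of condensing chromosomes, was called cycling, and every other cell resting. The DHEA library had 470 cycling cells, 4.39% of its cells (95% Clopper-Pearson interval 4.01 to 4.80%), and the CTRL library 331, or 3.80% (3.41 to 4.22%). Cycling cells held 3050813 UMIs in the DHEA library and 2499728 in the CTRL library, and resting cells 47026874 and 46739679. Median UMIs per cell were 5960.5 in cycling and 4399 in resting DHEA cells, and 6482 in cycling and 5573.5 in resting CTRL cells. The 5 CD8 T markers were the CD8 and CD3 genes of the filter, so their detection in each class does not check cell identity. Cd4 and Foxp3 had 0 UMIs in cycling cells of both libraries, and Ms4a1, Lyz2 and Ncr1 were also at 0 there. Other markers of the same lists were detected: 5 of 6 myeloid markers in cycling DHEA cells and 4 of 6 in cycling CTRL cells, which summed to 81.0 and 77.2 CPM with a UMI in 33.8% and 38.4% of cells, and 4 of 5 NK markers in each, which summed to 79.3 and 47.6 CPM with a UMI in 26.2% and 19.3% of cells. In resting cells the myeloid markers summed to 70.1 CPM in the DHEA and 67.7 CPM in the CTRL library, and the NK markers to 87.2 and 45.7 CPM. B cell markers (Cd79a, Cd79b and Ighm detected of 5) summed to 266.2 CPM in cycling DHEA cells and 275.2 CPM in cycling CTRL cells, and to 288.0 and 265.5 CPM in resting cells, and a UMI of them was present in 68.7% of cycling DHEA cells and 71.3% of cycling CTRL cells. Erythroid marker UMIs were found in 5 cycling DHEA cells, which held 225 of the 3980 histone UMIs of cycling DHEA cells, and in 3 cycling CTRL cells, which held 24 of 3240. With 1 library per group no test of a difference between DHEA and CTRL is possible, and treatment, animals and library preparation cannot be told apart. Levels are UMIs summed over the cells of a class per 1000000 UMIs of that class (CPM), and the 95% intervals given with them cover counting error only.

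Histone mRNA was captured at about the same summed level in cycling cells of both libraries, several times above resting cells. The 73 genes together reached 1305 CPM in cycling and 332.6 CPM in resting DHEA cells, a log2 ratio of 1.97 (1.92 to 2.02). In the CTRL library they reached 1296 CPM in cycling and 306.2 CPM in resting cells, a log2 ratio of 2.08 (2.03 to 2.14). Leaving out every cell with a UMI of a B, myeloid, NK, CD4 or erythroid marker kept 82 cycling DHEA cells with 603 histone UMIs and 55 cycling CTRL cells with 76, and the log2 ratio was then 2.20 in the DHEA library and -0.16 in the CTRL library. Of the 49 genes with at least 20 UMIs in both comparisons, 30 were at least 2-fold higher in cycling cells in both libraries, where 2.82% of all 12853 genes so measured were. None of the 49 was 2-fold lower in both, against 0.342% of all genes. Their median log2 ratio was 1.64 in the DHEA library and 2.11 in the CTRL library, beside 0.02 in each for all genes. Differences of more than 10-fold were seen for 13 of the 49 in both libraries, against 0.63% of all genes: H1f5, 7 H2A genes, 3 H2B genes and 2 H3 genes, and no H4 gene.

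**Figure D1:**
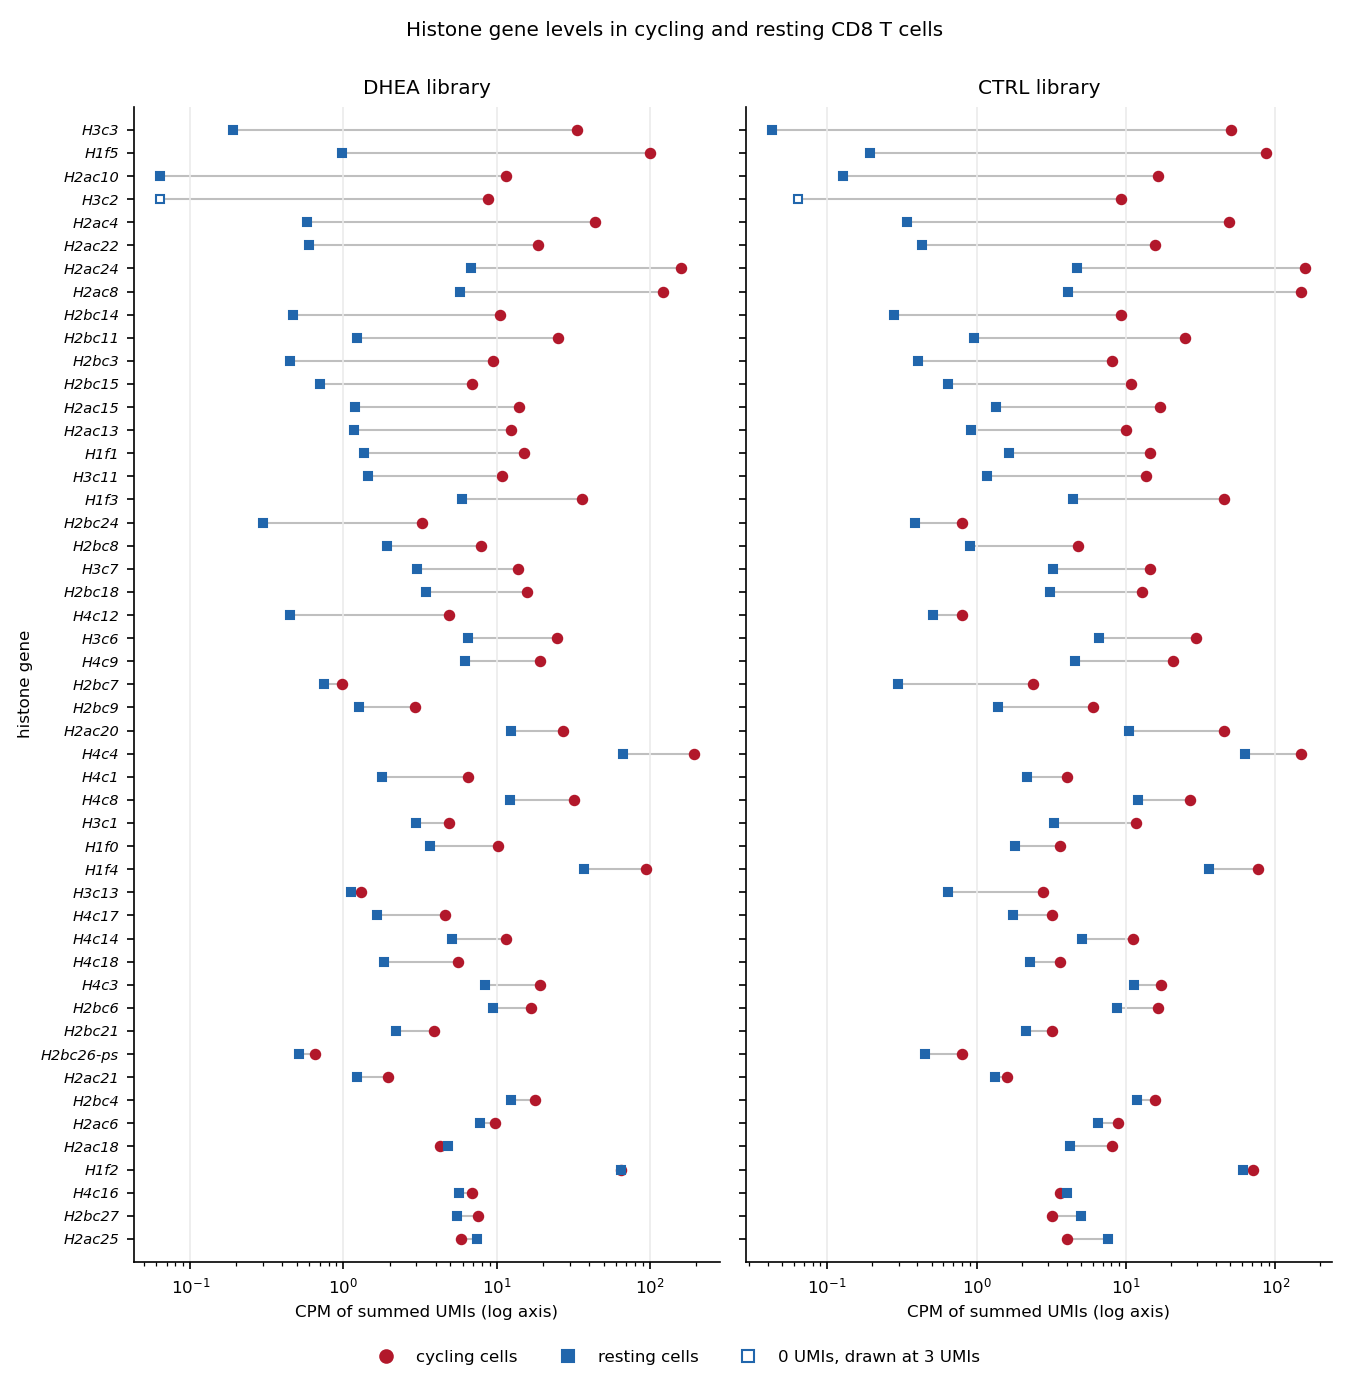
Level of each of the 49 histone genes with at least 20 UMIs in the cycling over resting comparison of both libraries, in CPM on a log axis, in cycling cells (circles) and resting cells (squares) of the DHEA (left) and CTRL (right) library. Genes are ordered by the mean log2 ratio: H3c3, H1f5, H2ac10 and H3c2 at the top have the widest gaps, with 9 or fewer H3c3, H2ac10 and H3c2 UMIs in resting cells of either library, while H1f2 near the bottom lies at about the same level in both classes.

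The families differed in how far cycling cells exceeded resting cells. H2A genes together reached 439.2 CPM in cycling and 50.1 CPM in resting DHEA cells, and 494.1 against 42.4 CPM in the CTRL library, log2 ratios of 3.13 (3.03 to 3.23) and 3.54 (3.44 to 3.65). H3 genes had log2 ratios of 2.65 (2.45 to 2.84) in the DHEA library and 3.11 (2.92 to 3.29) in the CTRL library. H2B genes had 1.70 (1.54 to 1.85) and 1.77 (1.59 to 1.94), and H1 genes 1.49 (1.39 to 1.59) and 1.51 (1.40 to 1.62). H4 genes had the smallest ratio in both libraries, 1.48 (1.38 to 1.58) in DHEA and 1.19 (1.07 to 1.31) in CTRL cells. The order H2A, H3, H2B, H1, H4 was the same in both libraries, but the intervals of H2B and H1 overlapped in both and those of H1 and H4 in the DHEA library.

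Among H2A genes, H2ac24 and H2ac8 had the most UMIs in cycling cells. H2ac24 had 160.3 CPM (489 UMIs) in cycling and 6.85 CPM (322 UMIs) in resting DHEA cells, and 158.8 CPM (397 UMIs) in cycling and 4.71 CPM (220 UMIs) in resting CTRL cells. Its log2 ratio was 4.55 (4.34 to 4.76) in the DHEA library and 5.08 (4.84 to 5.32) in the CTRL library. H2ac8 had 122.6 CPM in cycling and 5.76 CPM in resting DHEA cells, and 148.4 against 4.11 CPM in the CTRL library. H2ac4 was lower in level and more restricted, at 44.3 CPM in cycling and 0.574 CPM in resting DHEA cells and 49.2 against 0.342 CPM in CTRL cells. H2ac20, from the chromosome 3 cluster, was the H2A gene with the most UMIs in resting cells, 12.4 CPM in DHEA and 10.5 CPM in CTRL, and reached 27.2 CPM in cycling DHEA cells and 45.2 CPM in cycling CTRL cells. Near-identical copies exist for many of these genes, so UMIs may be split or lost between copies, and the level of a single gene is uncertain for that reason.

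The H3 genes H3c3 and H3c2, which encode the replicative H3 proteins, had few UMIs outside cycling cells. H3c3 had 33.4 CPM (102 UMIs) in cycling and 0.191 CPM (9 UMIs) in resting DHEA cells, and 50.4 CPM (126 UMIs) in cycling and 0.0428 CPM (2 UMIs) in resting CTRL cells. Its log2 ratio was 7.45 (6.47 to 8.62) in the DHEA library and 10.20 (8.32 to 13.26) in the CTRL library. H3c2 had 27 UMIs in cycling DHEA cells and 23 in cycling CTRL cells, and 0 UMIs in resting cells of both. Against a floor of 3 UMIs per library this is at least 139-fold higher in cycling DHEA cells and at least 143-fold higher in cycling CTRL cells. The floor corresponds to 0.0638 CPM in resting DHEA cells and 0.0642 CPM in resting CTRL cells.

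H1f5, H1f4 and H1f2, all on chromosome 13, differed in the gap between cycling and resting cells. H1f1 and H1f3, not described further, were at least 2-fold higher in cycling cells of both libraries. H1f5 had 100.6 CPM (307 UMIs) in cycling and 0.978 CPM (46 UMIs) in resting DHEA cells. In the CTRL library it had 86.0 CPM (215 UMIs) in cycling and 0.193 CPM (9 UMIs) in resting cells. Its log2 ratio was 6.69 (6.23 to 7.17) in the DHEA library and 8.80 (7.85 to 9.95) in the CTRL library. H1f4 was present in both classes, at 94.4 CPM in cycling and 37.4 CPM in resting DHEA cells and at 76.4 against 36.0 CPM in the CTRL library. H1f2 differed little: it had 64.6 CPM in cycling and 64.9 CPM in resting DHEA cells, and 71.2 CPM in cycling and 60.3 CPM in resting CTRL cells, log2 ratios of -0.01 (-0.22 to 0.20) and 0.24 (0.01 to 0.46). The H1f4 gene overlaps H2bc6 on the same strand in the annotation, so UMIs of the pair could be exchanged by the counting. Of the linker histone genes outside the clusters, H1f10 had 1 UMI in cycling and 1 in resting DHEA cells and 0 in the CTRL library, and H1f0 had 10.2 CPM in cycling and 3.66 CPM in resting DHEA cells and 3.60 against 1.80 CPM in the CTRL library.

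H4c4 held the most UMIs of any histone gene in the cycling DHEA cells and in resting cells of both libraries. It had 193.4 CPM (590 UMIs) in cycling and 67.2 CPM (3159 UMIs) in resting DHEA cells, and 148.8 CPM (372 UMIs) in cycling and 62.4 CPM (2914 UMIs) in resting CTRL cells. H4c8 had 32.1 CPM in cycling and 12.2 CPM in resting DHEA cells and 26.8 against 12.1 CPM in the CTRL library, and H4c3 19.3 against 8.36 CPM and 17.2 against 11.4 CPM. Among H2B genes, H2bc4 had 17.7 CPM in cycling and 12.4 CPM in resting DHEA cells, and 15.6 against 11.9 CPM in CTRL cells. H2bc6 had 16.7 against 9.44 CPM and 16.4 against 8.71 CPM. H2ac25, an H2A gene of chromosome 11 that overlaps Trim17 in the annotation, went the other way, with 5.90 CPM in cycling and 7.46 CPM in resting DHEA cells and 4.0 against 7.62 CPM in CTRL cells, log2 ratios of -0.34 (-1.11 to 0.34) and -0.93 (-2.00 to -0.03).

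Resting-cell histone mRNA came from few genes. H4c4, H1f2 and H1f4 held 50.9% of the histone UMIs of resting DHEA cells and 51.8% of those of resting CTRL cells. In cycling cells the leading 3 were H4c4, H2ac24 and H2ac8, with 36.5% in the DHEA library and 35.2% in the CTRL library. To compare shares of cells across depths, each cell was thinned to 1000 UMIs, which left out 1 cycling and 136 resting DHEA cells and 0 cycling and 8 resting CTRL cells. After thinning, H1f2 was detected in 7.89% of cycling and 6.49% of resting DHEA cells and in 4.53% of cycling and 5.99% of resting CTRL cells, and before thinning in 28.5% and 22.5% of DHEA cells and 29.3% and 25.7% of CTRL cells. H1f5 was detected after thinning in 4.26% of cycling and 0.0793% of resting DHEA cells, and in 3.93% of cycling and 0 of 8378 resting CTRL cells (95% upper bound 0.0440%), before thinning in 7.45% and 0.372% of DHEA cells and 7.25% and 0.107% of CTRL cells. The share that free RNA gives was not measured, since no class of cells without histone mRNA was available. Among genes far higher in cycling cells, resting shares before thinning were 0.0880% in DHEA and 0.0239% in CTRL cells for H3c3, 2.92% and 2.49% for H2ac24, and 2.55% and 2.19% for H2ac8. H4c4 was detected after thinning in 11.7% of cycling and 6.54% of resting DHEA cells and in 8.46% of cycling and 6.59% of resting CTRL cells, and before thinning in 35.1% and 23.9% of DHEA cells and 32.3% and 26.9% of CTRL cells.

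The excess over resting cells sat in a small set of cycling cells. A cycling cell with at least 20 UMIs of 24 S phase and 22 G2/M genes together, a definition chosen after the data were seen, is called cycle-rich here. There were 47 cycle-rich cells among the 470 cycling DHEA cells and 32 among the 331 cycling CTRL cells. They held 77.9% of the histone UMIs of cycling DHEA cells and 83.2% of those of cycling CTRL cells. Their summed histone level was 5271 CPM in the DHEA library and 5003 CPM in the CTRL library. The other cycling cells, 423 DHEA and 299 CTRL, had 356.6 and 277.4 CPM, close to the 332.6 and 306.2 CPM of resting cells, with log2 ratios of 0.10 (0.00 to 0.20) and -0.14 (-0.27 to -0.02). The 423 DHEA cells had 60 Mki67 and 449 Top2a UMIs in all, and the 299 CTRL cells 34 and 317. Median UMIs per cell were 9997 in cycle-rich DHEA cells and 14922 in cycle-rich CTRL cells. In cycle-rich cells H2A genes reached 2025 CPM in the DHEA library and 2177 CPM in the CTRL library, log2 ratios to resting cells of 5.34 (5.23 to 5.44) and 5.68 (5.58 to 5.79). H1f2 differed far less, at 105.3 CPM in cycle-rich DHEA cells and 155.9 CPM in cycle-rich CTRL cells, log2 ratios to resting cells of 0.70 (0.31 to 1.06) and 1.37 (1.04 to 1.68).

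**Figure D2:**
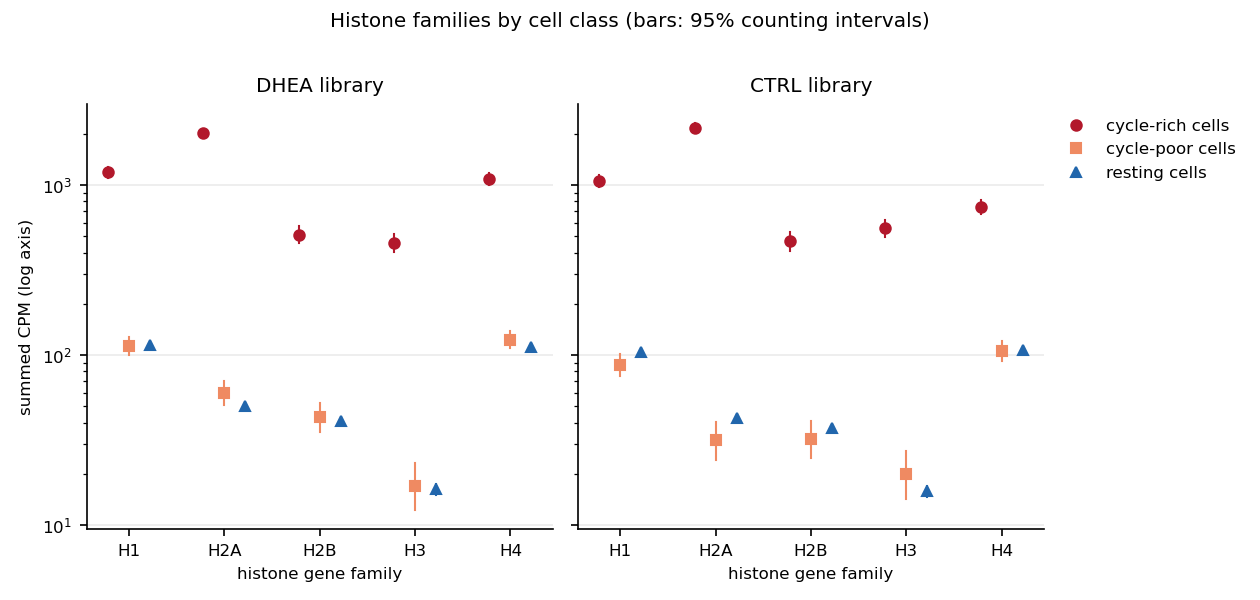
Summed level of each histone family, in CPM on a log axis, in cycle-rich, cycle-poor (the other cycling cells) and resting cells of the DHEA (left) and CTRL (right) library, with bars for the 95% counting interval. Cycle-poor and resting cells lie close together in every family, and cycle-rich cells stand above them, most of all for H2A at 2025 and 2177 CPM.

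Within the cycle-rich cells the histone UMIs were again uneven. In the DHEA library 19 of 47 cells had between 54 and 289 histone UMIs and the other 28 at most 30. In the CTRL library 17 of 32 cells had between 78 and 231 and the other 15 at most 33. The cells above the gap were 4.04% of cycling DHEA cells and 5.14% of cycling CTRL cells, and they held 70.7% and 78.1% of the histone UMIs of cycling cells. They stood mostly among cells in which UMIs of S phase and G2/M genes were mixed. Where G2/M genes made up 25 to 75% of the UMIs of both lists, the histone genes together had 8838 CPM in 24 DHEA cells and 8647 CPM in 13 CTRL cells. Where they made up under 25%, the level was 1631 CPM in 17 DHEA cells and 2183 CPM in 14 CTRL cells, and where they made up over 75%, 5120 CPM in 6 DHEA cells and 2489 CPM in 5 CTRL cells. All 13 CTRL cells of the mixed range had at least 78 histone UMIs, whereas 14 of the 24 DHEA cells had at least 50 and the lowest had 1. Apart from the 24 DHEA cells, each of these ranges holds under 20 cells.

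**Figure D3:**
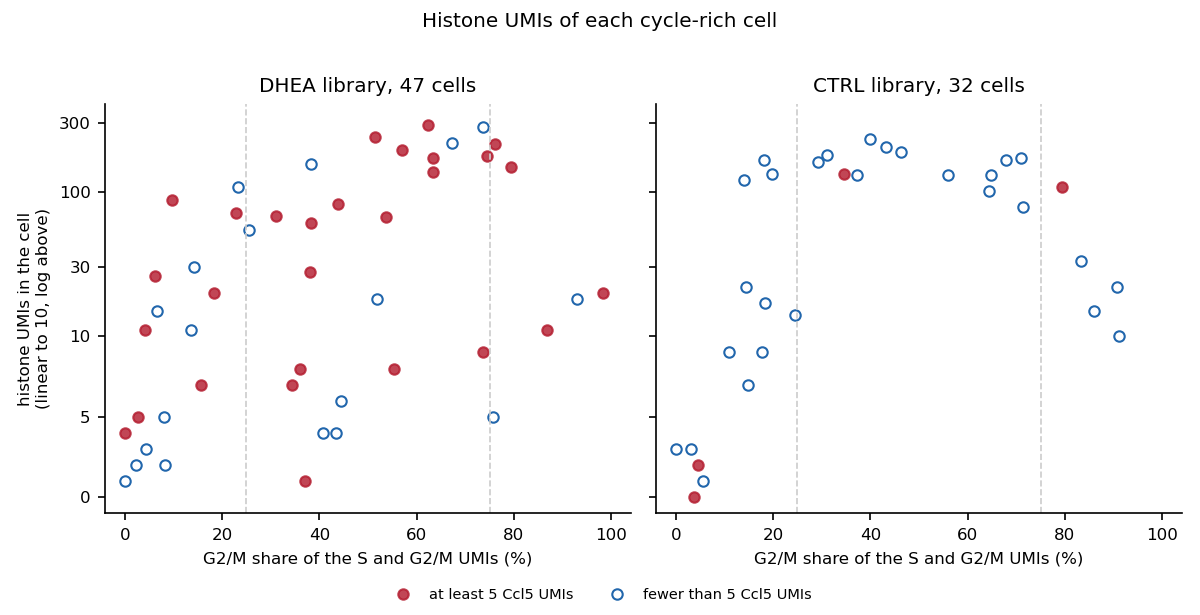
Histone UMIs of each cycle-rich cell (linear to 10, log above) against the G2/M share of its S phase and G2/M UMIs in percent, for 47 DHEA cells (left) and 32 CTRL cells (right), with filled points for cells with at least 5 Ccl5 UMIs. The cells with the most histone UMIs, up to 289 in the DHEA library and 231 in the CTRL library, lie between the dashed lines at 25 and 75%, and cells with over 100 histone UMIs are also found on both sides of these lines.

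The S phase transcription of these genes is textbook knowledge, so levels were also set side by side for cycling cells that lean to S phase and cells that lean to G2/M. A cell leaned to the list of which it held the larger part, relative to all cycling cells of its library, and a cell with UMIs of neither list was in neither class. The 73 genes had 638.1 CPM in 334 S-leaning and 4122 CPM in 81 G2/M-leaning DHEA cells, and 830.1 CPM in 244 S-leaning and 3215 CPM in 55 G2/M-leaning CTRL cells. The lean is relative, and the S phase list itself was also lower in S-leaning cells, at 1149 CPM in S-leaning and 1668 CPM in G2/M-leaning DHEA cells and 1264 against 1455 CPM in CTRL cells. Among cycle-rich cells alone it was higher, at 4920 against 3499 CPM and 5206 against 3135 CPM. Of the 31 genes measured in both libraries, none was 2-fold higher in S-leaning cells, against 0.758% of all genes, and 27 were 2-fold lower, against 1.95%. Most S-leaning cells were cycle-poor, and among cycle-rich cells the difference was smaller. There the levels were 2412 CPM in 25 S-leaning and 8846 CPM in 22 G2/M-leaning DHEA cells, a log2 ratio of -1.88 (-1.99 to -1.76), and 3519 CPM in 18 S-leaning and 7086 CPM in 14 G2/M-leaning CTRL cells, a log2 ratio of -1.01 (-1.12 to -0.90). With both Mki67 and Top2a required, the log2 ratio was -1.41 in the DHEA library and -0.21 in the CTRL library, and H1f5, H2ac24 and H2ac8 turned slightly positive in CTRL cells, at 0.02, 0.23 and 0.29.

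Transcript ends were then set beside the cycling over resting difference. The genes fall into 23 whose annotated transcript ends within 100 bases of the stem-loop, 23 whose transcript goes on further and 27 with no stem-loop in the annotated transcript, a grouping whose limit was chosen after the data were seen. A poly(A) signal (AATAAA or ATTAAA, on the transcript strand) followed the stem-loop in 1 of the 23 short-ended genes and in 16 of the 23 longer ones. The short-ended genes summed to 383.8 CPM in cycling and 47.3 CPM in resting DHEA cells and to 430.4 against 41.9 CPM in the CTRL library, log2 ratios of 3.02 and 3.36. The longer genes summed to 667.7 against 252.2 CPM and 635.6 against 235.2 CPM, log2 ratios of 1.41 and 1.43. They made up 51.2% of the histone CPM of cycling and 75.8% of that of resting DHEA cells, and 49.0% and 76.8% in the CTRL library. Genes without an annotated stem-loop had log2 ratios of 2.93 and 2.99, and H1f5 and H2ac10 are among them. Several of their annotated transcripts are short, such as 393 bases for H2ac13, H2ac15 and H2ac22 and 399 for H2ac10. A stem-loop past the annotated end would be missed, so its absence from the mRNA is not shown. There were exceptions in both directions. H2ac8 goes on for 151 bases with a poly(A) signal and was still 21.3-fold higher in cycling DHEA cells and 36.1-fold higher in cycling CTRL cells. H4c8, the 1 short-ended gene with a poly(A) signal after the stem-loop, ends 46 bases after it. H2ac20, with no such signal, ends 57 bases after its own. H4c8 and H2ac20 were among the 8 genes with most UMIs in resting cells of each library, though both were also at least 2-fold higher in cycling cells.

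**Figure D4:**
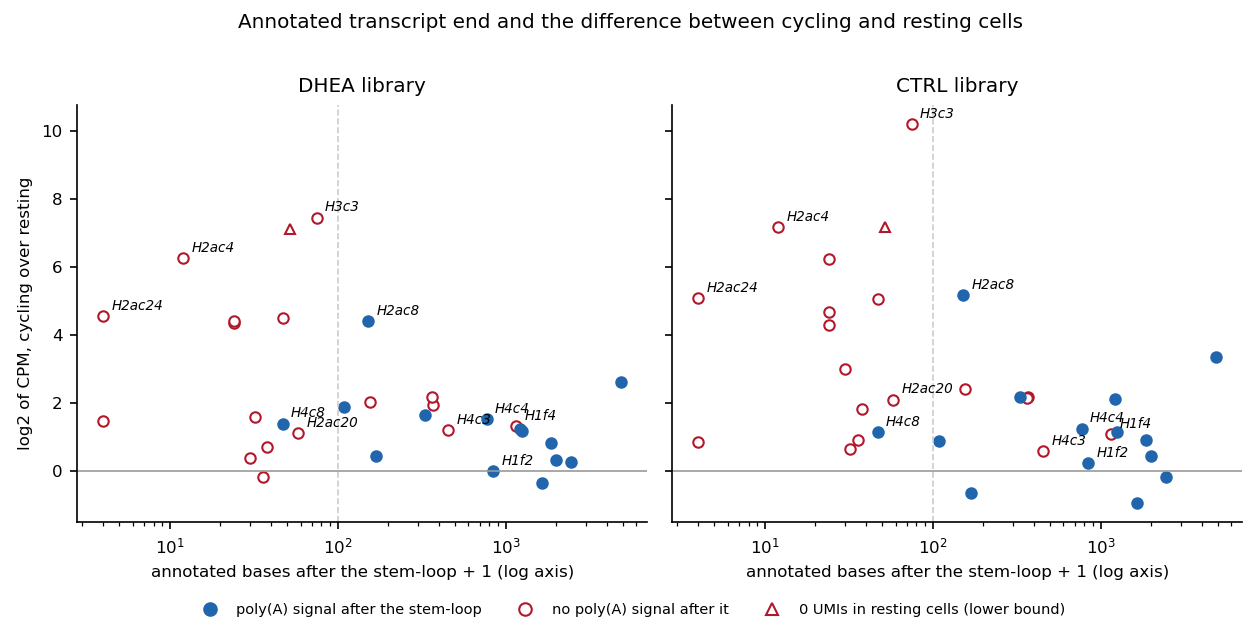
Log2 ratio of CPM in cycling over resting cells against the number of annotated bases after the stem-loop plus 1 (log axis), for measured histone genes with a stem-loop in the DHEA (left) and CTRL (right) library; filled points have a poly(A) signal after the stem-loop, triangles are lower bounds and the dashed line marks 100 bases. Genes above a log2 ratio of 4 end within 100 bases of the stem-loop, apart from H2ac8, and H2ac8 and H1f3 stand above the other long-ended genes.

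Promoters are shown for H1f5, the linker histone gene with the widest gap between cycling and resting cells, and H1f0. The latter lies outside the clusters. Each sequence runs from 250 bases before to 50 bases after the gene start, from RefSeq on GRCm38.p6, chr13:21780576-21780875 on the minus strand for H1f5 and chr15:79027962-79028261 on the plus strand for H1f0. Capitals mark CCAAT or TATAAA or AAACACA, or their reverse complements, where present.
H1f5: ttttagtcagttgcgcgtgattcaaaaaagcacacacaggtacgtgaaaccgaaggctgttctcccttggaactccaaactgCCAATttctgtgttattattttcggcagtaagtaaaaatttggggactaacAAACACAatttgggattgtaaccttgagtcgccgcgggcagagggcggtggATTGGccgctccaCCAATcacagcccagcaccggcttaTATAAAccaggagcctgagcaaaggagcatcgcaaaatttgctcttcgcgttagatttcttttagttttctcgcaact
H1f0: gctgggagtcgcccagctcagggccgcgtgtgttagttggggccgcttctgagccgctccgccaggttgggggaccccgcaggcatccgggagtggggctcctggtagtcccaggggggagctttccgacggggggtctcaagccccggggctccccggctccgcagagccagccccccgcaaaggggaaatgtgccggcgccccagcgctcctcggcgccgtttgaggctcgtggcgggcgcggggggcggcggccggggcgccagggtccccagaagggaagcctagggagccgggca
The H1f5 window held 3 copies of CCAAT with 1 of TATAAA and 1 of AAACACA, and the H1f0 window none of them. GENCODE M21 places the start of H1f0 at chr15:79028450, past the end of this RefSeq window. The bases next to that start were not read, so the missing matches hold for the printed window alone. RefSeq windows were found for 62 of the 73 genes. CCAAT was present, on either strand, in 51 of the 62 (82.3%) and in 37.9% of all 27025 promoters of that length. TATAAA was present in 34 (54.8%), against 14.2% of all promoters. AAACACA, a sequence of many H1 promoters, was present in 5 of 10 H1 genes, 4 further histone genes and 7.14% of all promoters. CCAAT was in every H2A, H2B and H3 window matched (17, 14 and 10) and in 3 of 11 H4 windows. These matches describe letters in a window and not binding.

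Between the libraries, the summed histone level of cycling cells differed by less than its counting error. It was 1305 CPM in DHEA and 1296 CPM in CTRL cycling cells, a log2 ratio of 0.01 (-0.06 to 0.08). Of 44 genes measured, 6 were at least 1.5-fold higher in DHEA cells, against 6.49% of all 9836 genes, and 7 at least 1.5-fold lower, against 5.9%. These counts turned to 13 higher and 2 lower with per-cell means, and to 3 higher and 0 lower after thinning. The share of all genes past the fold is not given for these settings, so the changed counts have no background beside them. Apart from H3c3 and H2ac20, the 13 genes past 1.5-fold by CPM of summed UMIs, the 6 and 7 above, had fewer than 50 UMIs over both libraries. Among the 44 the interval of 4 genes lay above 0 and that of 5 below 0, against 8.35% and 8.92% of all genes. The families differed in direction. Of the histone UMIs of cycling cells, 19 DHEA cells held 70.7% and 17 CTRL cells 78.1%, and the intervals do not cover the spread between cells. H4 genes had 309.4 CPM in DHEA and 243.2 CPM in CTRL cycling cells, a log2 ratio of 0.35 (0.20 to 0.50), H3 genes 101.3 against 136.0 CPM, -0.43 (-0.65 to -0.20), and H2A genes 439.2 against 494.1 CPM, -0.17 (-0.28 to -0.06). Among cycle-rich cells the H4 ratio was 0.55 (0.37 to 0.74), the H3 ratio -0.30 (-0.54 to -0.06) and the H2A ratio -0.10 (-0.22 to 0.01), whose interval holds 0. In the cycle-poor cells the H2A ratio went the other way, at 0.93 (0.49 to 1.38), from 148 DHEA and 62 CTRL UMIs. There the H4 ratio was 0.214 (-0.045 to 0.476) and the H3 ratio -0.222 (-0.885 to 0.445), with 0 inside both intervals. H4c4, with most H4 UMIs, had a log2 ratio of 0.38 (0.19 to 0.57) in cycling cells and 0.54 (0.31 to 0.77) in cycle-rich cells.

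The largest differences in cycling cells were in genes of low level. H1f0 had 10.2 CPM (31 UMIs) in DHEA and 3.60 CPM (9 UMIs) in CTRL cycling cells, a log2 ratio of 1.5 (0.39 to 2.75). H2bc27 had 7.54 CPM (23 UMIs) against 3.20 CPM (8 UMIs), 1.24 (0.03 to 2.61). H2ac11 had 3.93 CPM (12 UMIs) in DHEA and 9.60 CPM (24 UMIs) in CTRL cycling cells, -1.29 (-2.42 to -0.23), and H3c1 4.92 CPM (15 UMIs) against 11.6 CPM (29 UMIs), -1.24 (-2.24 to -0.29). Of the better counted genes, H3c3 had 33.4 CPM in DHEA and 50.4 CPM in CTRL cycling cells, -0.59 (-0.98 to -0.20), and H2ac24 160.3 against 158.8 CPM, 0.01 (-0.18 to 0.21). The summed difference moved with the choice of cells: without the cells carrying a marker of another type, which left 603 histone UMIs in 82 DHEA cells and 76 in 55 CTRL cells, its log2 value was 2.65. It was 0.36 without the cycle-rich cells, -0.13 with at least 2 UMIs of Mki67 and Top2a, and 0.36 with each cell given equal weight. At least 5 UMIs of Ccl5, a chemokine of antigen-experienced CD8 cells, were found in 28 of 47 cycle-rich DHEA cells and 4 of 32 cycle-rich CTRL cells. Gzmb, which encodes the cytotoxic protease granzyme B, had UMIs in 26 of 47 DHEA cells and in 0 of 32 CTRL cells, which, at 3 counts, allows a share of cells with a UMI of up to 9.38%. Their part in the differences was not tested.

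**Figure D5:**
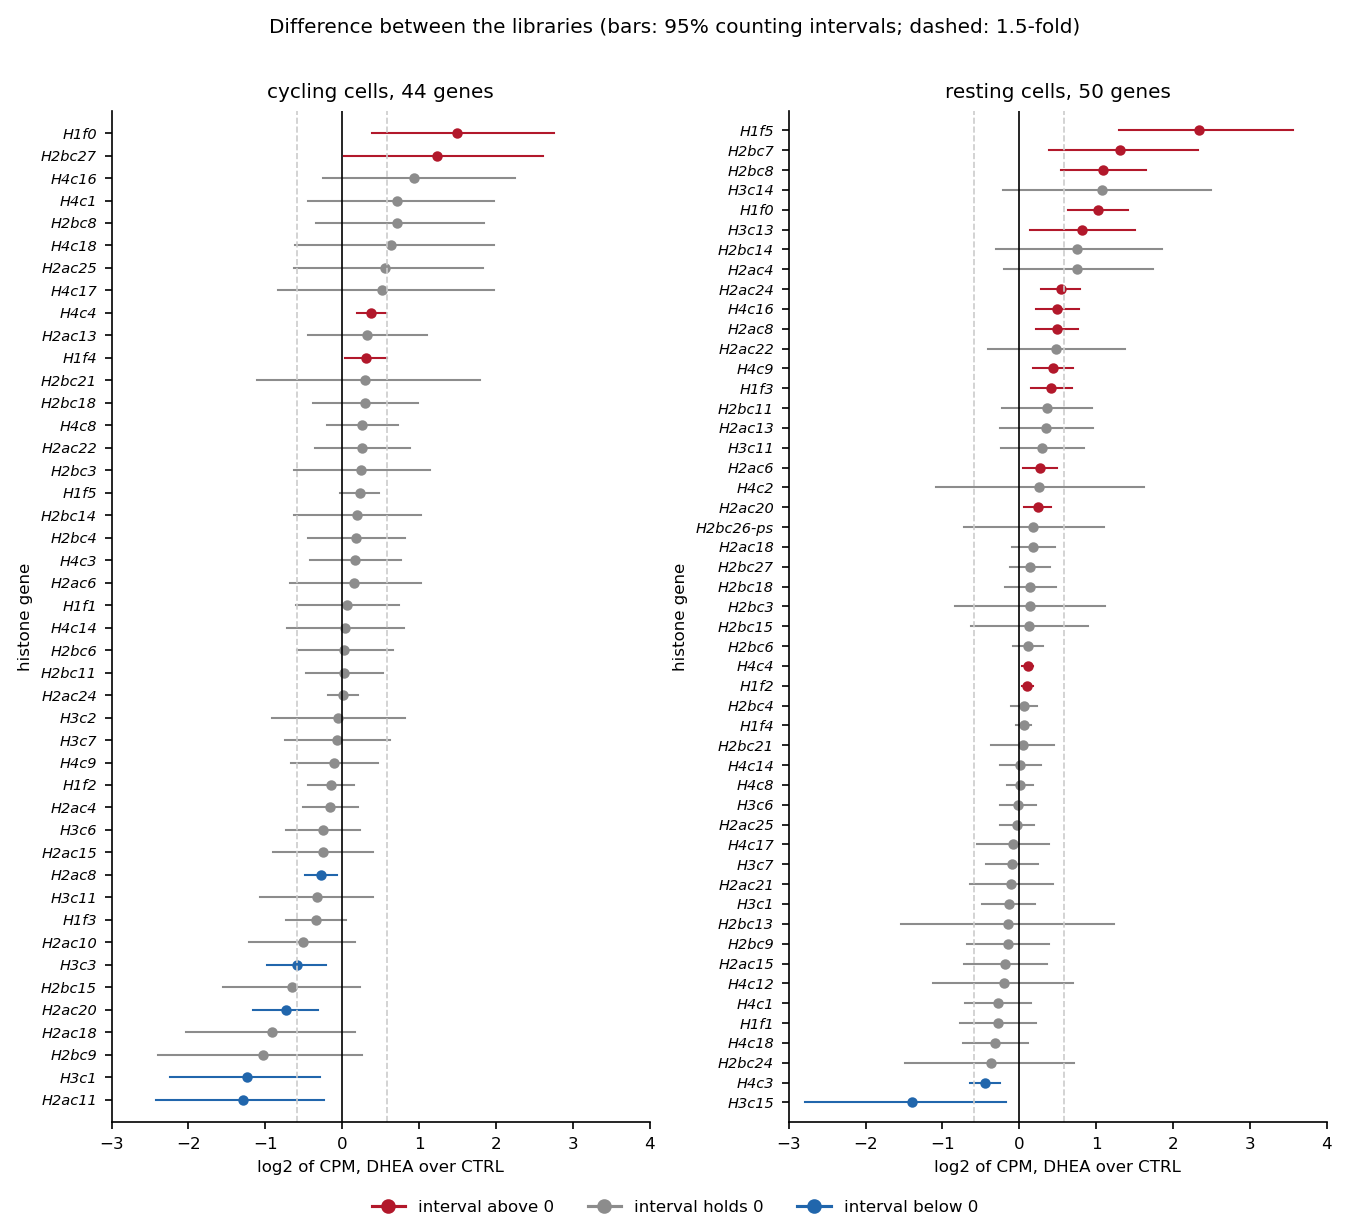
Log2 ratio of CPM in the DHEA over the CTRL library for the histone genes with at least 20 UMIs, in 44 genes of cycling cells (left) and 50 genes of resting cells (right), with 95% counting intervals; dashed lines mark 1.5-fold. Most intervals hold 0, H1f0 stands at the top of cycling cells and among the top 5 of resting cells, and H1f5 leads in resting cells.

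Relative to total UMIs, resting DHEA cells had a slightly higher histone level than resting CTRL cells, 332.6 against 306.2 CPM. The log2 ratio was 0.12 (0.09 to 0.15). Counted by cell, a histone UMI was found in 67.9% of resting DHEA and 74.5% of resting CTRL cells, at median depths of 4399 and 5573.5 UMIs. Of 50 genes measured, 8 were at least 1.5-fold higher in DHEA cells, against 4.71% of all 14193 genes, and 1 at least 1.5-fold lower, against 6.4%. At a minimum of 200 UMIs, 24 genes were measured, of which 1 was higher and 0 lower by that fold. The median log2 ratio of the 50 was 0.13, beside -0.01 for all genes, with 34 above and 16 below 0. The interval of 14 genes lay above 0 and that of 2 below 0, against 20.8% and 23.7% of all genes. H1f5 differed most, at 0.978 CPM (46 UMIs) in DHEA and 0.193 CPM (9 UMIs) in CTRL resting cells, a log2 ratio of 2.35 (1.30 to 3.56). The 46 UMIs were spread over 38 cells, with at most 4 in a cell. Among them 40 came from resting cells with a Ccl5 UMI, where H1f5 had 1.59 CPM in DHEA (40 UMIs) and 0.0623 CPM in CTRL cells (1 UMI). In resting cells without Ccl5 it had 6 UMIs in DHEA and 8 in CTRL cells. Resting DHEA cells with a UMI of another cycle gene (Rrm2, Pclaf, Tyms, Birc5, Ube2c or Ccnb2, chosen after the data were seen) were 4.74% of resting cells and held 9 of these 46 H1f5 UMIs, and without them the log2 ratio was 2.04 (0.96 to 3.27). Of the 24 genes of the S phase list, 1 passed 1.5-fold upward and 1 downward in resting DHEA cells against resting CTRL cells, with a median log2 ratio of 0.13.

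By CPM of summed UMIs, H1f0 was higher in DHEA cells in cycling, cycle-rich and resting cells, and in resting cells with and without Ccl5. These classes overlap, since cycle-rich cells are cycling cells and the Ccl5 classes divide the resting cells. After thinning, H1f0 was detected in 0.426% of cycling DHEA and 0.604% of cycling CTRL cells. That is 2 cells in each library, too few to give a direction. In resting cells the thinned shares were 0.327% in DHEA and 0.179% in CTRL cells. Without thinning, H1f0 had 3.66 CPM (172 UMIs in 143 cells) in DHEA and 1.80 CPM (84 UMIs in 75 cells) in CTRL resting cells. Its log2 ratio there was 1.03 (0.64 to 1.42). In resting cells with a Ccl5 UMI it had 4.49 against 2.06 CPM, 1.13 (0.56 to 1.73), and in those without 2.70 against 1.66 CPM, 0.70 (0.14 to 1.27). In cycle-rich cells it had 20 UMIs in the DHEA library and 4 in the CTRL library, and in resting cells without another cycle gene 3.17 against 1.84 CPM, 0.79 (0.38 to 1.20). The share of resting cells with a Ccl5 UMI, 48.2% in the DHEA and 29.5% in the CTRL library, differed beside these values. Of the other genes with a large difference, H2bc8 had 1.91 CPM (90 UMIs) in DHEA and 0.899 CPM (42 UMIs) in CTRL resting cells, 1.09 (0.55 to 1.66), H2bc7 0.744 CPM (35 UMIs) against 0.300 CPM (14 UMIs), 1.31 (0.38 to 2.32), and H3c15 0.170 CPM (8 UMIs) against 0.449 CPM (21 UMIs), -1.40 (-2.79 to -0.17). The genes with most resting UMIs differed little: H4c4 by 0.11 (0.04 to 0.18), H1f2 by 0.10 (0.03 to 0.18) and H1f4 by 0.06 (-0.04 to 0.15). H4c3 was lower, at 8.36 CPM in DHEA and 11.4 CPM in CTRL resting cells, -0.45 (-0.64 to -0.26).

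Within each library, resting cells with a Ccl5 UMI had a lower summed histone level than resting cells without. The 73 genes had 303.1 CPM in Ccl5+ and 366.7 CPM in Ccl5- resting DHEA cells, a log2 ratio of -0.28 (-0.32 to -0.23), and 284.1 against 317.7 CPM in the CTRL library, -0.16 (-0.21 to -0.11). The log2 ratio was below 0 for 38 of 45 genes measured in the DHEA library and 34 of 41 in the CTRL library, with medians of -0.24 and -0.29 beside -0.03 for all genes. Past 1.5-fold in both libraries there were 0 higher genes and 1 lower, H3c13, of 40, against 4.11% and 2.33% of all genes. Ccl5+ cells had more UMIs (medians of 4935 in Ccl5+ and 3977 in Ccl5- DHEA cells, and 6514.5 and 5271 in CTRL cells), and after thinning to 1000 UMIs the summed ratios shrank to -0.15 and -0.05.

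Other genes of the histone pathway had smaller median log2 ratios of cycling over resting cells than the clustered genes did. Over all genes measured, the share past 2-fold in both libraries was 2.82% upward and 0.342% downward in cycling cells, and the median log2 ratio was 0.02 in each. The 9 listed replacement histone genes, many of whose products can enter chromatin outside replication, include Cenpa, which is also on the G2/M list. Of these, 8 were measured and 3 were at least 2-fold higher in cycling cells in each library, with none 2-fold lower. Their median log2 ratios were 0.45 in DHEA and 0.54 in CTRL cells. H2az1 had 1001 CPM in cycling and 485.0 CPM in resting DHEA cells and 730.9 against 351.9 CPM in CTRL cells. H2ax, whose product marks broken DNA when phosphorylated, had 157.0 against 46.4 CPM and 152.4 against 36.6 CPM, whereas H3f3b differed by 0.22 and 0.24 on the log2 scale. None of 15 histone mRNA processing genes passed 2-fold in either direction, and their median log2 ratios were 0.15 and 0.18. Slbp, the stem-loop binding protein, had 117.7 CPM in cycling and 67.6 CPM in resting DHEA cells, and 107.2 against 56.2 CPM in CTRL cells, log2 ratios of 0.80 (0.64 to 0.96) and 0.93 (0.75 to 1.12). Of 16 chaperone and assembly genes 3 were at least 2-fold higher in each library and none 2-fold lower. Nasp, a carrier of H1 and H3-H4, had 107.5 CPM in cycling and 87.4 CPM in resting DHEA cells and 134.4 against 106.9 CPM in CTRL cells. Between the libraries, H2az1 was higher in DHEA cells by a log2 ratio of 0.45 (0.37 to 0.54) in cycling and 0.46 (0.43 to 0.49) in resting cells, and Nasp lower by -0.32 (-0.55 to -0.10) and -0.29 (-0.35 to -0.23). Slbp had log2 ratios of 0.13 (-0.10 to 0.37) and 0.27 (0.19 to 0.34).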

How the data were processed

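UMI counts per gene and cell, unnormalised, are the deposited values, 1 matrix per library. Per the file headers they were written by Cell Ranger 8.0.1, and the submitters' processing notes name mm39 and Seurat 4.3.0. No step of the authors beyond those is given in the sources used here. Cells were kept with at least 200 genes, under 10% mitochondrial UMIs and a UMI of CD8 (Cd8a or Cd8b1) and CD3 (Cd3d, Cd3e or Cd3g), which kept 10699 of 12128 DHEA barcodes and 8717 of 9495 CTRL barcodes. The matrices hold 53020893 and 51638782 UMIs. Scrublet in scanpy 1.11.5 marked 1 DHEA cell and 0 CTRL cells, under 0.5%, which is taken as not having worked, and no cell was removed as a doublet. The libraries share 51 barcodes, 45 of them in DHEA and 44 in CTRL cells kept.

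UMIs were summed per library and cell class and given as CPM of the class total. The exact 95% interval of a log2 ratio treats its 2 counts as a binomial split. A gene was measured with at least 20 UMIs over both sides, and a count of 0 was set at a floor of 3 UMIs, per library. Calls are 2-fold or 10-fold for cell classes and 1.5-fold for DHEA over CTRL and for Ccl5, with no test, since there is 1 library per group. Genes described in full are the 8 with most UMIs in cycling and in resting cells, H1f0, H1f10 and the 4 largest DHEA over CTRL differences in each class. H3c2, H2ac10, H2ac25 and H3c13 were chosen after their values were seen. Members and lists were chosen with earlier results of these data known. Cycle-rich cells, the other cycle genes, the erythroid alternative, the 100-base limit, the 25 and 75% ranges, and the limits of 50 histone and 5 Ccl5 UMIs were chosen after the data were seen.

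Alternatives were edgeR 4.0.16 TMM factors in R 4.3.3, totals without mitochondrial and ribosomal genes, per-cell means, thinning to 1000 UMIs, other cycling rules, filters, minimums and folds, and sets of cells left out. The ratio and interval step was run on simulated independent Poisson counts per gene. Such counts do not hold the clumping of histone UMIs in few cells. The run therefore could not check the intervals against the spread between cells. Python 3.11.15, numpy 2.4.6, scipy 1.17.1, pandas 2.3.3 and matplotlib 3.10.9 were used. Transcripts are from GENCODE M21 (all 73 genes matched by gene identifier) and promoters from RefSeq.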

Additional observations from a re-analysis of the deposited data

Results flagged for a closer look

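H2ac20 and H2ac8 moved in opposite directions in the 2 cell classes. For H2ac20 the log2 ratio of DHEA over CTRL was -0.733 in cycling cells and 0.241 in resting cells, each with a counting interval on its own side of 0. For H2ac8 it was -0.276 in cycling cells and 0.488 in resting cells. The difference between the classes was not tested, as each value compares 1 library with 1 library. H2ac20 stood at -0.79 in cycle-rich cells and, in cycling cells thinned to 1000 UMIs, at 0.08. In the cycle-poor cycling cells H2ac8 stood at 1.309 (0.185 to 2.577), above 0 as in resting cells, from 28 DHEA and 9 CTRL UMIs. H2ac20 stood there at 0.025 (-0.929 to 1.001).

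Barcodes outside the analysed cells also held histone UMIs above the limit that a count of 0 allows. Cells without a CD8 or CD3 UMI had a summed level of 572.0 CPM in the DHEA library (972 cells) and 831.5 CPM in the CTRL library (493 cells). Barcodes past the mitochondrial limit or under the gene minimum had 807.3 CPM in the DHEA library (457 barcodes) and 587.0 CPM in the CTRL library (285 barcodes). These barcodes have no cell type assigned here.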

How the results depend on the processing

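No paired analysis was possible because each group has 1 library, and for the same reason no replicate could be left out. Values are log2 ratios of the summed histone genes unless a count is named, and the cause of each shift was not tested unless the alternative's own construction gives it. Counts of genes under an alternative stand without the share of all genes under it, so they show dependence on the setting alone. The cycling over resting ratio was 1.91 (TMM) and 1.92 (no mitochondrial or ribosomal genes) in DHEA; in DHEA and then CTRL cells it was 1.51 and 1.30 with per-cell means, 1.63 and 1.43 thinned, 4.28 and 4.16 with both Mki67 and Top2a, 3.38 and 3.63 with at least 2 UMIs, 2.11 and 2.19 without the highest doublet scores, 2.20 and -0.16 without cells with other-type markers, 0.10 and -0.14 without cycle-rich cells, and 3.99 and 4.03 in those alone. In CTRL it was 2.29 in all cells past the filters and 1.99 without shared barcodes. Genes at least 2-fold higher numbered 30, but 5 thinned, 0 without other-type markers and 11 (of 19 measured) at a minimum of 200 UMIs; lower genes numbered 0, but 1 with per-cell means and 1 with at least 2 UMIs. For DHEA over CTRL in cycling cells the ratio was 0.36 with per-cell means, 0.33 thinned, 0.24 with both genes, -0.13 with at least 2 UMIs, -0.22 in all cells past filters, 2.65 without other-type markers, 0.10 without shared barcodes and 0.36 without cycle-rich cells. Its 6 higher genes became 13 with per-cell means, 3 thinned, 2 with at least 2 UMIs, 13 without a minimum, 0 at 200 UMIs and 2 at 2-fold. Its 7 lower genes became 2 with per-cell means, 0 thinned, 0 without other-type markers, 13 without a minimum, 1 at 200 UMIs, 3 at 2-fold and 2 without cycle-rich cells. In resting cells the ratio was 0.29 without other-type markers, the 8 higher genes became 13 without a minimum, 1 at 200 UMIs and 5 at 2-fold, and the 1 lower gene became 2 thinned, 2 without other-type markers, 3 without a minimum and 0 at 200 UMIs. S-leaning over G2/M-leaning was, in DHEA and then CTRL, -2.40 and -2.15 with per-cell means, -2.50 and -2.23 thinned, -1.41 and -0.21 with both genes, -2.20 and -0.74 with at least 2 UMIs, -2.45 and -0.50 without other-type markers, -2.99 and -1.68 without erythroid markers, -3.81 and -2.43 with a 2-fold lean, and -1.88 and -1.01 in cycle-rich cells; it was -2.85 under 5% mitochondrial UMIs in DHEA, and -1.64 without the highest doublet scores and -1.79 without shared barcodes in CTRL. Ccl5+ over Ccl5- was -0.21 with per-cell means, -0.15 thinned and -0.045 without other-type markers in DHEA, and -0.048 thinned and -0.10 without other-type markers in CTRL. The share of cycling cells was 0.327% and 0.356% with both genes, 0.963% and 0.746% with at least 2 UMIs, and 3.26% and 3.09% without other-type markers, in DHEA and then CTRL. Of 1761 values of single genes, 1449 stayed, 296 moved and 16 reversed. Those reversed were, for DHEA over CTRL in cycling cells, H2ac20 (0.082 thinned, 1.47 without other-type markers); for S-leaning over G2/M-leaning in CTRL with both genes, H1f5 (0.022), H2ac11 (0.40), H2ac24 (0.23), H2ac8 (0.29) and H3c1 (1.40, and 0.82 with at least 2 UMIs); in DHEA, H2bc27 (0.52 with per-cell means), H2bc4 (0.76 thinned, 0.059 with both genes, 0.71 without other-type markers) and H3c1 (0.38 with both genes); and for cycling over resting in CTRL without other-type markers, H1f4 (-0.74), H2ac20 (-0.46) and H4c8 (-0.36). Depth limits single genes: 11 of 13 genes past 1.5-fold between the libraries in cycling cells rest on fewer than 50 UMIs.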
